A study of Mus musculus with 16 samples.

Results

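Among the 51912 genes counted in lung ILC2s, 8 that limit the output of cytokine mRNAs or of NF-κB signaling were examined as a set of genes chosen by name. *Zfp36*, *Zfp36l1*, and *Zfp36l2* encode the tristetraprolin family, *Zc3h12a* and *Zc3h12d* encode Regnase-1 and Regnase-4, *Rc3h1* and *Rc3h2* encode Roquin-1 and Roquin-2, and *Tnfaip3*, which encodes A20, was included as a feedback inhibitor that acts on proteins. ILC2s (group 2 innate lymphoid cells) are tissue lymphocytes that secrete IL-5, IL-9, and IL-13. They were sorted from the lungs of WT mice or *Pac1-/-* mice, which lack the phosphatase encoded by *Dusp2*; the methods give mice of 6 to 8 weeks of age on a C57BL/6J background, and a sort purity above 90%. The cells of every group received IL-7 at 100 ng/mL for 4 hours. The IL-7 group received nothing more, the IL-33 group also received the alarmin IL-33 at 100 ng/mL, and the CGRP and NMU groups received IL-7, IL-33, and either neuropeptide at 500 ng/mL. With both genotypes and all 4 treatments, this made 8 groups of 2 libraries, 16 in all, each from about 500 sorted ILC2s. Nothing in the labels says whether the 2 libraries of a group came from separate mice or cultures, so *P* values measure the spread between libraries, which may be technical.

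Cytokine mRNAs are short-lived, and the proteins studied here are among those that shorten their lives. Tristetraprolin and its relatives bind AU-rich elements in 3′ untranslated regions and recruit the CCR4-NOT complex, which removes the poly(A) tail. Regnase-1 is an endonuclease that cuts stem-loops, Roquin proteins bind such stem-loops and recruit deadenylases, and A20 edits ubiquitin chains on signaling proteins upstream of NF-κB. In ILC2s, IL-33 activates NF-κB and p38, CGRP raises cAMP, and NMU acts through a receptor that raises calcium.

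The mRNAs of *Zfp36*, *Zfp36l1*, and *Zfp36l2* carry letters of the element that the proteins of this family bind. *Rc3h1*, *Rc3h2*, and *Tnfaip3* also had these letters, although Roquin proteins bind stem-loops and A20 acts on proteins. The nonamer TTATTTATT, the core of the AU-rich element recognized by tristetraprolin, was searched on the sense strand of the 3′ untranslated region of 1 coding transcript per gene (GENCODE M21, GRCm38). It was present in 6 of the 8 members, against 7.597% of the 20981 genes with such a region, and each of these 6 held it 1 time. *Zc3h12a* and *Zc3h12d* did not have these letters in the region searched. The 3′ untranslated regions differed in length, from 774 bases in *Zfp36* to 7181 in *Rc3h1*, with a median of 954 over all genes, so the share is a description. A match does not show that a protein is bound. The sites of 5 members are given as examples of this sequence feature, each as 25 bases in the direction of the mRNA with the nonamer in capitals.
Zfp36, chr7:28376953-28376977, minus strand: tgacgactTTATTTATTgtattaag
Zfp36l1, chr12:80108169-80108193, minus strand: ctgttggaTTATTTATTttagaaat
Zfp36l2, chr17:84184916-84184940, minus strand: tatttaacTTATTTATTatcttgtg
Rc3h1, chr1:160970045-160970069, plus strand: tttactcaTTATTTATTgagatgag
Rc3h2, chr2:37373289-37373313, minus strand: aagacattTTATTTATTttactctg

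For comparison, 9 of the 19 cytokine and chemokine mRNAs listed below as textbook targets of the tristetraprolin family had the nonamer, *Tnf* 5 times and *Csf2* and *Cxcl2* 4 times each, with overlapping copies counted. The nonamer was in 2 of the 12 other textbook targets of Regnase-1 and Roquin listed below. The following sites of *Il2* and *Il13* are shown because both mRNAs appear in the results.
Il2, chr3:37120900-37120924, minus strand: atctgaaaTTATTTATTatattgaa
Il13, chr11:53631743-53631767, minus strand: tcttgatcTTATTTATTatggttgt

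The promoters of *Zfp36* and *Tnfaip3* were read from RefSeq (GRCm38.p6), as 250 bases before and 50 bases after the start of the gene, since these were the 2 members whose mRNA rose with CGRP over IL-33. Entries were present for 7 of the 8 members, without *Zfp36l2*, and *Tnfaip3* had 2 start sites. On both strands, 5 motifs were searched. These were the NF-κB decamer, the serum response CArG box, the EGR site (GCGGGGGCG or GCGTGGGCG), the cAMP response element TGACGTCA, and its shorter form TGACG, which overlaps it. They were found in 8.459%, 1.629%, 3.467%, 1.79%, and 20.812% of 32851 promoters, respectively. The *Zfp36* promoter held an EGR site from base -105 to -97 and a CArG box from -58 to -49 relative to the start, both in capitals.
Zfp36, chr7:28379179-28379478, minus strand: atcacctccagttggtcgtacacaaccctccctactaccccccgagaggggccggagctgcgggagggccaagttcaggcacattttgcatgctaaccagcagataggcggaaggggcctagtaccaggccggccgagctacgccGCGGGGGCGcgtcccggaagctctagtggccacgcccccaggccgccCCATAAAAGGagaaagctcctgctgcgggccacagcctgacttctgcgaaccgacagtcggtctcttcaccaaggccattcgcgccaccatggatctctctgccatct

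The upstream *Tnfaip3* promoter held 2 NF-κB decamers, from -125 to -116 and from -12 to -3, and the shorter cAMP element from -168 to -164, in capitals below. None of the 5 motifs was found at its other start site. The letters TGACGTCA were in neither promoter, and among the other members *Zc3h12a* alone held a motif, the shorter cAMP element at bases 5 to 9. Of the genes named below as higher with CGRP, 6 more were searched. TGACGTCA was in the promoters of *Btg2* and *Dusp1* and at 1 of 3 start sites of *Nfkbid*, and was not found in those of *Tob2*, *Nfkbia*, and *Rel*. The promoters of *Nfkbia* and *Rel* each held 1 NF-κB decamer, and the same start site of *Nfkbid* held 2. *Rel* also held the shorter cAMP element, as did *Dusp1* apart from TGACGTCA. *Tob2* held none of the 5 motifs. A match is a description of the sequence and not a measured binding site.
Tnfaip3, chr10:19015361-19015660, minus strand: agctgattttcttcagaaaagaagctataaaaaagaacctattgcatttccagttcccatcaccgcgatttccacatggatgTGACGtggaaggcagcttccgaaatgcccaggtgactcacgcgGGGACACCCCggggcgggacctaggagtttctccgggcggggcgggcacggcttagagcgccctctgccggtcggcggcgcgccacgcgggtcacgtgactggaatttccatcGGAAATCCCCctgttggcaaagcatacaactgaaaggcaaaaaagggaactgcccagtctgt

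The total count per library was 6764992 to 15963357, and levels are given as CPM, counts relative to the library total after scaling between libraries. A floor of 3 counts equals 0.188 to 0.443 CPM and covers counting error only, because no molecular identifiers are described. *Dusp2*, the targeted gene, had 0 counts in 14 of 16 libraries, with 57 counts in IL-7 replicate 2 and 29 in NMU replicate 1 of the WT group, too few to check the genotypes. ILC2 markers, 11 genes including *Gata3* and *Il1rl1*, summed to 7604 to 12024 CPM in the 16 libraries. *Cd8a* and *Tbx21*, markers of cytotoxic T cells and of ILC1s, were at 0 throughout, while *Cd8b1* reached 5.67 CPM. Markers of NK cells and ILC1s, 4 genes, summed to 4.31 to 15.8 CPM with IL-7 and to at most 4.36 CPM in the other treatments. Among them, *Klrb1c* reached 15.1 CPM. Markers of B cells, 4 genes, summed to 35.4 to 281 CPM in the CGRP libraries and to 0 to 42.2 CPM in the others, led by *Cd79b*. Those of mast cells and basophils, 4 genes, summed to 79.3 to 190 CPM with CGRP and to 26.6 to 80.4 CPM elsewhere, nearly all from *Cpa3*, while *Mcpt8* and *Ms4a2* were at or below 0.4 CPM. The ILC2 list was itself highest with CGRP (10920 to 12024 CPM) and lowest with NMU (7604 to 9201 CPM). Markers of lung epithelium, 4 genes, reached 331 CPM in an NMU library and were at most 83.3 CPM in the other treatments. Myeloid markers, 6 genes, reached 123 CPM in an NMU library, mainly from *Lyz2*, and were at most 15.8 CPM in the other treatments. T cell markers, 6 genes, summed to 240 to 339 CPM with IL-7 and to 33.8 to 173 CPM in the other treatments, mainly from *Cd3g*. The part of these differences in the treatment results that follow was not tested. In these bulk libraries, fewer cells of a type and less RNA per cell cannot be told apart.

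Per length, the members spanned a wide range in ILC2s. In TPM, counts divided by the exon length of the gene and scaled to the same sum in every library, the median level over the 16 libraries was 84.1 for *Tnfaip3*, 33.9 for *Zfp36l1*, 31.2 for *Zfp36l2*, 10.4 for *Zfp36*, 5.62 for *Rc3h1*, 4.16 for *Rc3h2*, 2.84 for *Zc3h12a*, and 0 for *Zc3h12d*. The ranges of neighbors in this order overlapped in each case. *Tnfaip3* ranged from 45.7 to 191 TPM and *Zfp36l1*, the next gene, from 23.9 to 68.1 TPM. *Zfp36* ranged from 3.57 to 52.8 TPM, and its lowest levels were below all those of *Zfp36l1*.

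**Figure D1:**
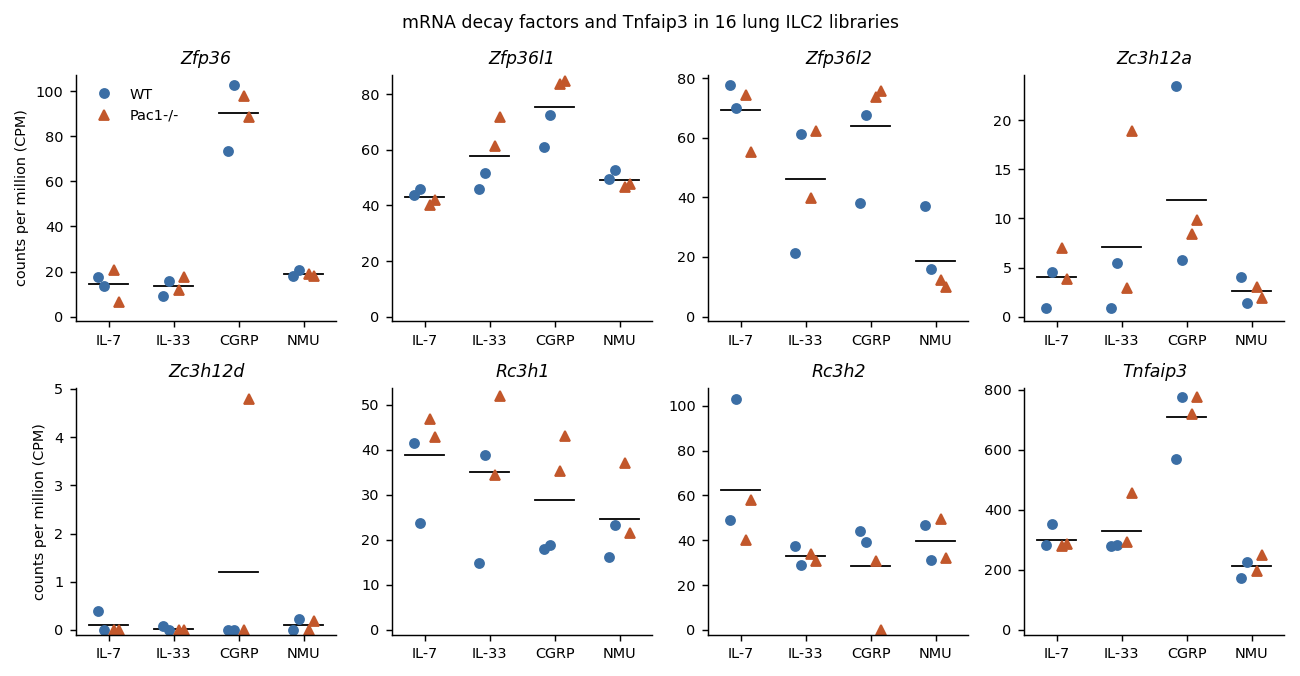
Level of each member in CPM (linear axis) in the 16 libraries by treatment, with WT libraries as circles, Pac1-/- libraries as triangles, and the mean of the 4 libraries of a treatment as a line. The CGRP libraries of *Zfp36* (73.3 to 103 CPM) and *Tnfaip3* (568 to 776 CPM) lay above all the other libraries of these genes, and 1 Pac1-/- CGRP library of *Rc3h2* lay near 0.

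*Zfp36*, which encodes tristetraprolin, was the member with the largest fold difference that passed the cutoff. Its level was 9.23 and 15.9 CPM in the WT and 11.9 and 17.7 CPM in the *Pac1-/-* libraries with IL-33. With CGRP, it was 73.3 and 103 CPM in WT ILC2s and 97.6 and 88.6 CPM in *Pac1-/-* ILC2s. With NMU, it was 18.0 and 20.6 CPM in WT ILC2s and 18.7 and 18.2 CPM in *Pac1-/-* ILC2s. Every CGRP library was above every library of the other treatments, every NMU library was above every IL-33 library by a small margin, as for 2.27% of all genes, and the IL-7 libraries (6.50 to 20.5 CPM) overlapped both. The level was 6.63-fold higher with CGRP than with IL-33 (log2 difference 2.73, SE 0.419, adjusted *P* = 0.00362, edgeR's quasi-likelihood test over 14979 genes). It was 4.79-fold higher with CGRP than with NMU (log2 difference 2.26, SE 0.412, adjusted *P* = 0.00648).

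The call for *Zfp36* was made with both genotypes together. Taken separately, the log2 difference between CGRP and IL-33 was 2.81 (SE 0.595) in WT and 2.65 (SE 0.590) in *Pac1-/-* ILC2s, and the adjusted *P* values by edgeR were 0.0681 and 0.0511, so that 0 members passed the cutoff within either genotype. At an unadjusted *P* value under 0.05 by edgeR, there were 2 members in each genotype, *Zfp36* and *Tnfaip3*. Of the 14979 genes tested, 1532 in WT and 1542 in *Pac1-/-* ILC2s had such a value. DESeq2 was not run within genotypes. Of all genes, 0.334% were past the cutoff and higher with CGRP in WT and 0.794% in *Pac1-/-* ILC2s. The difference between the genotypes in the CGRP response was -0.15 on the log2 scale, with a 95% interval from -1.85 to 1.55.

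*Zfp36l1* encodes a relative of tristetraprolin that is also known for holding lymphocytes in quiescence. Its mean level was 42.9 ± 2.43 CPM with IL-7, 57.7 ± 11.3 CPM with IL-33, 75.5 ± 11.1 CPM with CGRP, and 49.1 ± 2.69 CPM with NMU (SD, *n* = 4 libraries). The CGRP libraries (61.0 to 84.8 CPM) were above all NMU libraries (46.7 to 52.8 CPM), while 3 of 4 were above all IL-33 libraries (46.0 to 71.8 CPM). The log2 difference was 0.40 (SE 0.229) against IL-33 and 0.61 (SE 0.230) against NMU, with adjusted *P* values of 0.409 and 0.158 by edgeR. DESeq2 put the difference from NMU past the cutoff (log2 difference 0.66, adjusted *P* = 8.25e-07). An antisense gene, *Gm26669*, shares 55.9% of the exon bases of *Zfp36l1*, and it had 114 counts in all libraries against 9878 for *Zfp36l1*. The strand setting of the counting is not stated, so reads of both genes cannot be told apart there. *Zfp36* and *Zfp36l2* share 3.6% and 3.0% of their exon bases with antisense genes.

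*Zfp36l2*, the relative that is best known from lymphocyte development, had its lowest levels with NMU. With IL-33, it had 21.3 and 61.2 CPM in WT ILC2s and 39.7 and 62.3 CPM in *Pac1-/-* ILC2s. With NMU, it had 36.9 and 15.8 CPM in WT ILC2s and 12.4 and 9.996 CPM in *Pac1-/-* ILC2s. With CGRP, it had 38.2 and 67.8 CPM in WT ILC2s and 73.8 and 75.6 CPM in *Pac1-/-* ILC2s. The lowest of these values, 38.2 CPM, was just above the highest NMU library (36.9 CPM). The 4 NMU libraries overlapped the IL-33 libraries and were below all 4 IL-7 libraries (55.3 to 77.8 CPM), as for 3.53% of all genes. The level was 3.66-fold higher with CGRP than with NMU (log2 difference 1.87, SE 0.404, edgeR adjusted *P* = 0.0167), and without the WT NMU replicate 2 library the adjusted *P* value was 0.0574. The difference between NMU and IL-33 was -1.41 on the log2 scale (SE 0.399) and did not pass the cutoff with edgeR (adjusted *P* = 0.317), whereas it passed with DESeq2 (log2 difference -1.43, adjusted *P* = 0.0203). In contrast to *Zfp36*, *Zfp36l2* showed a log2 difference between CGRP and IL-33 of only 0.46 (SE 0.390, adjusted *P* = 0.616).

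Because these genes moved by different amounts, the makeup of the family's mRNA differed between treatments. *Zfp36* accounted for 10.6% ± 3.68 of the summed TPM of the 3 genes with IL-7, 10.8% ± 0.819 with IL-33, 37.8% ± 3.19 with CGRP, and 20.3% ± 2.79 with NMU (SD, *n* = 4 libraries). *Zfp36l2* accounted for 51.3% ± 1.47 with IL-7 and 18.7% ± 9.40 with NMU. *Zfp36l1* accounted for 38.0% ± 5.01 with IL-7, 54.4% ± 8.60 with IL-33, 36.6% ± 2.45 with CGRP, and 61.1% ± 6.64 with NMU. The summed level itself was 69.1 ± 5.91, 87.3 ± 33.2, 122 ± 23.4, and 57.0 ± 13.9 TPM with IL-7, IL-33, CGRP, and NMU, respectively. These shares follow from the levels above and were not tested.

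**Figure D2:**
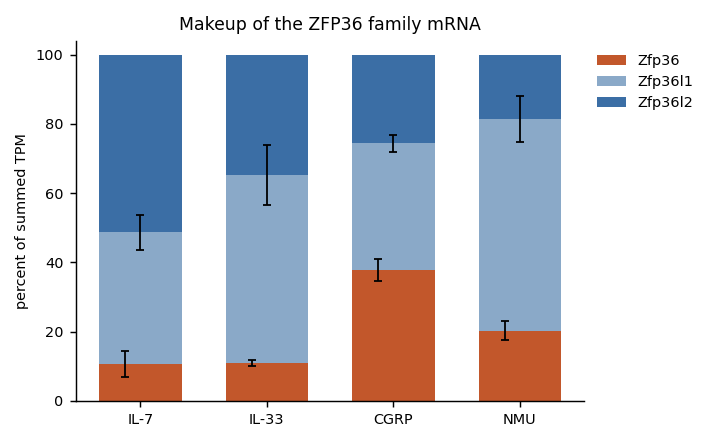
Mean share of each gene in the summed TPM of *Zfp36*, *Zfp36l1*, and *Zfp36l2* in percent, by treatment (4 libraries each), with bars stacked from 0 and error bars, at the top of the *Zfp36* and *Zfp36l1* segments, showing the SD of that gene's share. The share of *Zfp36* was 37.8% with CGRP and 10.8% with IL-33, and the share of *Zfp36l2* was 18.7% with NMU and 51.3% with IL-7.

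*Zc3h12a*, which encodes Regnase-1, was low, and its libraries varied widely within treatments. With CGRP, it had 23.5 and 5.81 CPM in WT ILC2s and 8.42 and 9.83 CPM in *Pac1-/-* ILC2s. With IL-33, it had 0.893 and 5.51 CPM in WT ILC2s and 2.90 and 18.9 CPM in *Pac1-/-* ILC2s. The CGRP and IL-33 libraries overlapped, while the NMU libraries (1.34 to 4.003 CPM, from 12 to 32 counts) were below all CGRP libraries. The log2 difference between CGRP and NMU was 2.17 (SE 0.986, adjusted *P* = 0.242 by edgeR). It passed the cutoff with DESeq2 (log2 difference 2.23), and also with edgeR when only the 5992 genes with at least 10 counts in every library were kept (adjusted *P* = 0.0357). *Zc3h12d*, which encodes Regnase-4, had 0 counts in 11 of 16 libraries, and 37 of its 48 counts were in *Pac1-/-* CGRP replicate 2. It was removed by the filter on low counts, so that 7 of the 8 members were tested.

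The Roquin genes did not pass the cutoff in any treatment comparison. *Rc3h1*, which encodes Roquin-1, had a mean level of 38.8 ± 10.2 CPM with IL-7, 35.1 ± 15.4 CPM with IL-33, 28.8 ± 12.4 CPM with CGRP, and 24.5 ± 8.85 CPM with NMU (SD, *n* = 4). The libraries of all 4 treatments overlapped, and the largest log2 difference of the 4 comparisons was -0.50 (SE 0.400, NMU against IL-33). *Rc3h2*, which encodes Roquin-2, had 62.5 ± 27.9 CPM with IL-7, 32.8 ± 3.68 CPM with IL-33, and 39.9 ± 9.52 CPM with NMU. The log2 difference between IL-33 and IL-7 was -0.89. With CGRP, it had 44.2 and 39.3 CPM in WT ILC2s and 31.0 CPM in *Pac1-/-* replicate 1, but a single count (0.129 CPM) in *Pac1-/-* replicate 2. That library thus stood apart for *Rc3h2*, as it did for *Zc3h12d*. The log2 difference between CGRP and IL-33 was -0.36 with all libraries. Without *Pac1-/-* CGRP replicate 1, when the low library alone stood for its group, the difference was -3.77 with an adjusted *P* value of 0.000177.

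*Tnfaip3*, the deubiquitinase gene and an NF-κB target, was the member with the most counts. It had 278 and 284 CPM in WT ILC2s and 293 and 457 CPM in *Pac1-/-* ILC2s with IL-33. With CGRP, it had 568 and 774 CPM in WT ILC2s and 718 and 776 CPM in *Pac1-/-* ILC2s. With NMU, it had 173 and 227 CPM in WT ILC2s and 197 and 250 CPM in *Pac1-/-* ILC2s, below all 4 libraries with IL-33, as for 2.08% of all genes, and all 4 with IL-7 (279 to 353 CPM). In CPM, the CGRP libraries were above all others. In TPM, *Pac1-/-* IL-33 replicate 2 (179 TPM) was above WT CGRP replicate 1 (132 TPM). The level was 2.18-fold higher with CGRP than with IL-33 (log2 difference 1.12, SE 0.191, edgeR adjusted *P* = 0.0073) and 3.35-fold higher than with NMU (log2 difference 1.74, SE 0.195, adjusted *P* = 0.000248). The difference between NMU and IL-33 was -0.62 on the log2 scale (SE 0.190, edgeR adjusted *P* = 0.426) and did not pass the cutoff. IL-33 and IL-7 differed by 0.12 (SE 0.189).

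Counted over the members, with a cutoff of a fold change above 1.5 and an adjusted *P* value under 0.05, CGRP against IL-33 gave 2 higher and 0 lower of 7 tested, where 1.65% of all genes were higher and 1.11% lower. CGRP against NMU gave 3 higher and 0 lower, where 2.63% of all genes were higher and 2.84% lower. IL-33 against IL-7 gave 0 (0.0334% of all genes), with 0 members at an unadjusted *P* value under 0.05 by edgeR and 0 past the cutoff by DESeq2. NMU against IL-33 gave 0 (0.187% of all genes), with 2 members at an unadjusted *P* value under 0.05 and 1 past the cutoff by DESeq2. Over all 14979 genes tested by edgeR, 1480 had such an unadjusted value in IL-33 against IL-7 and 974 in NMU against IL-33. For CGRP the numbers were 2505 against IL-33 and 3034 against NMU. The median log2 difference over the 7 members was 0.46 for CGRP against IL-33 and 1.74 for CGRP against NMU, beside -0.09 and 0.02 over all genes tested. In CPM, all 4 CGRP libraries were above all 4 IL-33 libraries for 2 members, as for 5.82% of all genes, and above all 4 NMU libraries for 5 members, as for 6.86% of all genes. In TPM, the CGRP and IL-33 libraries overlapped for *Tnfaip3*, and the CGRP and NMU libraries for *Zfp36l1* and *Zfp36l2*. The NMU and IL-33 libraries of *Zfp36* and *Tnfaip3* also overlapped in TPM. The comparisons share their CGRP and IL-33 libraries and are not independent of each other.

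**Figure D3:**
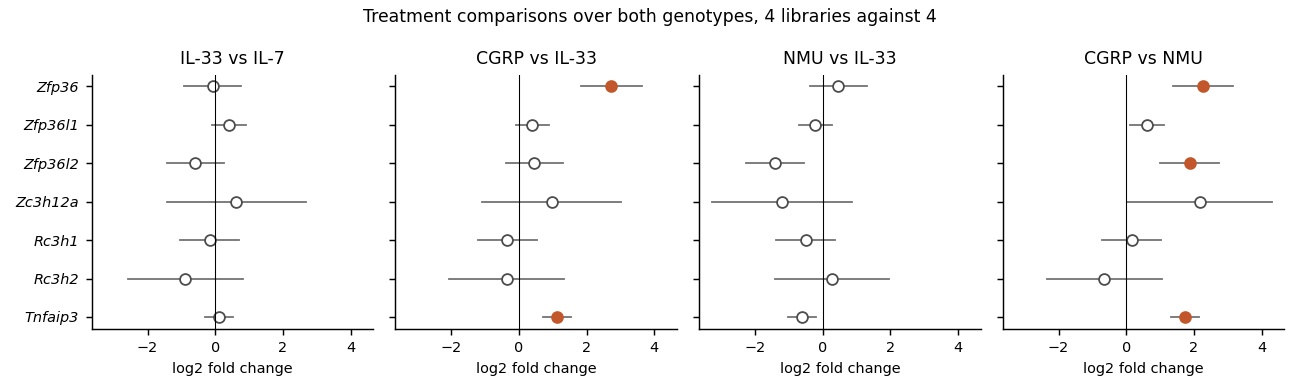
Log2 fold change of the 7 members tested in the 4 treatment comparisons (4 libraries against 4 each), with 95% intervals as lines and filled points for values past the cutoff. *Zfp36* and *Tnfaip3* were past it in both CGRP comparisons, *Zfp36l2* in CGRP against NMU, and no member in the comparisons of IL-33 with IL-7 and NMU with IL-33.

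The question of whether loss of PAC1 changed these genes was addressed within each treatment, over all treatments, and by the interaction of genotype with treatment. In all 8 tests, 0 members passed the cutoff with edgeR and 0 with DESeq2. Of all genes, 0.113% passed over all treatments, 0.00668% with IL-7, 0.00668% with IL-33, 0.107% with CGRP, 0.02% with NMU, and 0%, 0%, and 0% in the interactions with IL-33, CGRP, and NMU. In the 3 interactions, 726, 905, and 813 genes had an unadjusted *P* value under 0.05 by edgeR and 80, 212, and 48 were past the cutoff by DESeq2. Among the members, *Rc3h1* over all treatments and *Zfp36l2* with NMU were the values at an unadjusted *P* value under 0.05 by edgeR. In these 2 tests, 1014 and 493 of the 14979 genes tested had such a value.

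*Rc3h1* had 17.9 and 18.9 CPM in WT ILC2s and 35.4 and 43.1 CPM in *Pac1-/-* ILC2s with CGRP. The pairs of libraries did not overlap with CGRP or with IL-7 (23.9 and 41.5 CPM in the WT group, 42.9 and 46.8 CPM in the *Pac1-/-* group) but overlapped with IL-33 and with NMU. Both *Pac1-/-* libraries were above both WT libraries for 19.3% of all genes with CGRP and 14.4% with IL-7. Over all treatments, the log2 difference between *Pac1-/-* and WT ILC2s was 0.70 (SE 0.284, adjusted *P* = 0.662 by edgeR). *Zfp36l2* with NMU was lower in both *Pac1-/-* libraries than in both WT libraries, as for 15.6% of all genes, with a log2 difference of -1.23 (SE 0.564, edgeR adjusted *P* = 1), and the interaction of genotype and NMU was -1.54 (95% interval -3.24 to 0.16, adjusted *P* = 0.914).

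The intervals for the other members were wide with 2 libraries a group. For *Zfp36* with CGRP, the log2 difference between *Pac1-/-* and WT ILC2s was 0.08, with a 95% interval from -1.12 to 1.28, and for *Tnfaip3* it was 0.16, with an interval from -0.42 to 0.73. Over all treatments, these differences were 0.01 (-0.59 to 0.62) and 0.14 (-0.15 to 0.43). For *Rc3h2* with CGRP the difference was -1.42 (-3.86 to 1.02), and it passed the cutoff only when *Pac1-/-* CGRP replicate 1 was left out (-8.20, adjusted *P* = 9.33e-05), which again left the library with 1 count as the whole group.

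**Figure D4:**
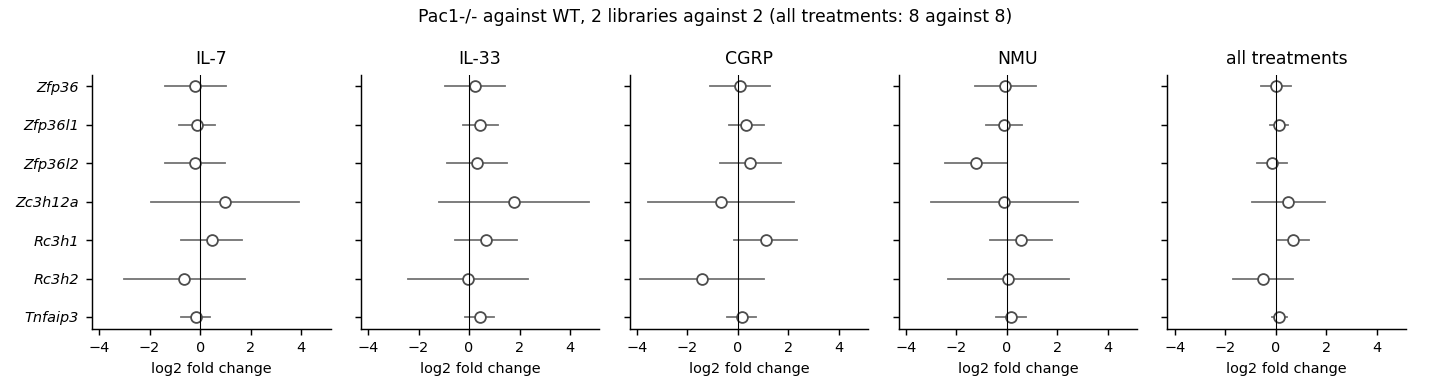
Log2 fold change of *Pac1-/-* against WT for the 7 members tested, with 95% intervals, within each treatment (2 libraries against 2) and over all treatments (8 against 8). No value was past the cutoff, and the interval excluded 0 for *Rc3h1* over all treatments (0.09 to 1.31) and for *Zfp36l2* with NMU (-2.45 to -0.01).

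Of 18 genes for the deadenylase complexes CCR4-NOT and PAN and their adaptors, 2 were higher with CGRP than with IL-33 and 0 lower by edgeR, beside the 1.65% and 1.11% of all genes given above. In that comparison, 6 had an unadjusted *P* value under 0.05 and 4 passed with DESeq2, and in CGRP against NMU, 2 passed with edgeR, 8 had an unadjusted *P* value under 0.05, and 5 passed with DESeq2. *Btg2*, which encodes an adaptor that activates the CAF1 deadenylase, had 251 ± 85.2 CPM with CGRP and 48.6 ± 8.07 CPM with IL-33 (SD, *n* = 4 each, log2 difference 2.32, SE 0.291, edgeR adjusted *P* = 0.000817). *Tob2*, of the same adaptor family, had 211 ± 50.9 and 45.3 ± 17.0 CPM (log2 difference 2.23, SE 0.318, adjusted *P* = 0.00226). Both were also higher with CGRP than with NMU (log2 differences 2.48 and 2.29). The other 16 genes did not pass with edgeR in any treatment comparison. The median log2 difference over the 18 genes was 0.22 for CGRP against IL-33.

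Of 10 decapping and 5′-to-3′ decay genes tested, 0 passed in any treatment comparison with edgeR. For CGRP against IL-33, 1 had an unadjusted *P* value under 0.05 and 1 passed with DESeq2, and for CGRP against NMU there were 2 and 2. Of 16 other proteins that bind AU-rich elements or stem-loops, 0 passed, with 1 at an unadjusted *P* value under 0.05 and 1 past the cutoff by DESeq2 in CGRP against NMU and 0 and 0 in the other 3 treatment comparisons. Of 4 genes tested for the MALT1 complex, whose protease cleaves Regnase-1, Roquin, and A20, and for its adaptors, 0 passed with edgeR, with 1 at an unadjusted *P* value under 0.05 (CGRP against IL-33), and 0 passed with DESeq2.

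Among 12 kinase and phosphatase genes that set the phosphorylation of tristetraprolin, *Dusp1*, which encodes a phosphatase that inactivates p38, was higher with CGRP. It had 124 ± 23.7 CPM with CGRP, 30.2 ± 6.34 CPM with IL-33, and 19.8 ± 5.68 CPM with NMU (SD, *n* = 4). The log2 differences were 2.02 (SE 0.302, adjusted *P* = 0.00305) and 2.65 (SE 0.310, adjusted *P* = 0.000341). *Map2k3*, which encodes a kinase that activates p38, was lower with CGRP (33.4 ± 5.69 CPM) than with NMU (97.1 ± 14.8 CPM, log2 difference -1.54, SE 0.302, adjusted *P* = 0.0102). The other 10 genes, p38 and MK2 included, did not pass with edgeR in the 4 treatment comparisons.

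Among 12 partners of A20, related deubiquitinases, and inhibitors of NF-κB, *Nfkbia*, which encodes the NF-κB inhibitor IκBα, rose with *Tnfaip3*. It had 2299 ± 654 CPM with CGRP and 947 ± 234 CPM with IL-33 (SD, *n* = 4, log2 difference 1.25, SE 0.208, edgeR adjusted *P* = 0.00659). *Tnip3*, which encodes an A20-binding protein, was lower with CGRP (59.5 ± 22.5 CPM) than with NMU (258 ± 58.2 CPM, log2 difference -2.15, SE 0.306, adjusted *P* = 0.00125). The remaining 10 genes, including the A20 adaptors *Tnip1* and *Tax1bp1*, did not pass with edgeR in the 4 treatment comparisons. With DESeq2, 3 of the 12 passed in NMU against IL-33, where edgeR gave 0 and 4 had an unadjusted *P* value under 0.05, and 4 of the 12 passed in CGRP against NMU.

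The mRNAs listed as textbook targets of the factors moved in both directions. Of 17 cytokine and chemokine genes with AU-rich elements tested, of 19 listed, 7 were higher and 2 lower with CGRP than with IL-33, 12 were higher and 0 lower with NMU than with IL-33, and 2 were higher and 7 lower with CGRP than with NMU. Of all genes, 1.65% were higher and 1.11% lower, 0.187% passed, and 2.63% were higher and 2.84% lower, respectively. The median log2 difference over the 17 genes was 2.06, 2.46, and -1.07 in these comparisons, beside -0.09, -0.08, and 0.02 over all genes, and these medians were the same when genes at 0 on one side were set to a floor of 3 counts over the group. With IL-33 over IL-7, 0 of 17 passed with edgeR, 5 had an unadjusted *P* value under 0.05, and 1 passed with DESeq2. Some calls depended on the setting. When the libraries of the comparison were fitted alone, *Il13* and *Il17a* lost theirs in CGRP against IL-33, and *Csf2* and *Il3* in NMU against IL-33. With the replicate number as a block, *Il13* also lost its call in CGRP against IL-33. *Il17a* in CGRP against NMU did not pass with DESeq2.

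With CGRP, where *Zfp36* was highest, *Il9* had its lowest and *Il2* its highest mean level. *Il9* had 0 nonamers in the region searched. Whether the factors acted on any of these mRNAs in ILC2s was not tested. *Il9*, a growth factor for mast cells and ILC2s, had 13.6 ± 17.7 CPM with CGRP, 179 ± 85.6 CPM with IL-33, and 3275 ± 1132 CPM with NMU (SD, *n* = 4), with log2 differences of -5.41 (SE 0.377) and -9.69 (SE 0.436) for CGRP against IL-33 and NMU. *Il2*, the T cell growth factor, had 264 ± 32.8 CPM with CGRP, 3.33 ± 1.82 CPM with IL-33, and 140 ± 105 CPM with NMU. *Cxcl2*, a neutrophil chemokine with 4 nonamers, had 1346 ± 320 CPM with CGRP and 315 ± 59.4 CPM with IL-33 (log2 difference 2.07, SE 0.180). It was also higher with NMU (1912 ± 956 CPM, log2 difference 2.46, SE 0.183). *Cxcl2* and *Il2*, both with the nonamer, were thus among the mRNAs that rose with CGRP. *Il13*, with 1 nonamer, had 8.84 ± 4.17 CPM with CGRP and 226 ± 115 CPM with NMU (log2 difference -4.55, SE 0.481), and *Cxcl3*, also with 1, had 209 ± 68.7 and 1346 ± 439 CPM (log2 difference -2.64, SE 0.248). Every log2 difference given here passed the cutoff by edgeR.

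Between the genotypes, 3 of these cytokine genes passed the cutoff. *Il9* with CGRP had 38.1 and 15.03 CPM in WT ILC2s and 0.812 and 0.259 CPM in *Pac1-/-* ILC2s (log2 difference -5.55, SE 0.579, edgeR adjusted *P* = 0.00435). The value of 0.259 CPM was below the floor. The mean of its log2 differences over all treatments, CGRP included, also passed (-1.52, SE 0.230, edgeR adjusted *P* = 0.0258). *Il9* was not lower in *Pac1-/-* ILC2s with IL-7 (mean 309 against 290 CPM in WT) or with NMU (3865 against 2686 CPM). With IL-33, the means were 112 and 246 CPM. *Il6* with CGRP had 93.5 and 30.2 CPM in WT ILC2s and 435 and 468 CPM in *Pac1-/-* ILC2s (2.87, SE 0.462, adjusted *P* = 0.0347). *Il3* with NMU had 0.154 and 0.111 CPM, below the floor, in WT and 77.3 and 54.2 CPM in *Pac1-/-* ILC2s (adjusted *P* = 0.0237). Both calls with CGRP were lost when the 4 CGRP libraries were fitted alone (adjusted *P* = 0.552 for each), a fit in which 0 genes passed of 10912, while that of *Il3* held in the 4 NMU libraries alone (adjusted *P* = 0.0348).

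Of 11 other textbook targets of Regnase-1 and Roquin tested, of 12 listed, 3 were higher and 1 lower with CGRP than with IL-33, and 3 were higher and 3 lower with CGRP than with NMU. *Nfkbiz*, which encodes the nuclear cofactor IκBζ, had 579 ± 77.5 CPM with CGRP, 136 ± 39.1 CPM with IL-33, and 181 ± 66.1 CPM with NMU (SD, *n* = 4), and *Rel*, which encodes the NF-κB subunit c-Rel, had 268 ± 63.0, 61.8 ± 18.9, and 97.4 ± 34.1 CPM. *Nfkbid*, which encodes a further nuclear IκB protein, had 48.3 ± 5.93 CPM with CGRP and 9.79 ± 2.91 CPM with IL-33. The log2 differences between CGRP and IL-33 were 2.08 (SE 0.260), 2.12 (SE 0.292), and 2.31 (SE 0.468), with edgeR adjusted *P* values of 0.000792, 0.00169, and 0.0191. *Irf4*, a transcription factor of effector lymphocytes, fell to 6.15 ± 2.55 CPM with CGRP from 26.6 ± 6.42 CPM with IL-33 (log2 difference -2.12, SE 0.457, adjusted *P* = 0.0265), a call lost when the libraries of the comparison were fitted alone (adjusted *P* = 0.165). *Nfkbid* lost its call, with adjusted *P* values up to 0.116, when WT IL-33 replicate 1, WT IL-33 replicate 2, or *Pac1-/-* IL-33 replicate 2 was left out. *Il2ra*, the IL-2 receptor α chain, had 838 ± 212 CPM with CGRP and 1848 ± 154 CPM with NMU (log2 difference -1.18, SE 0.132, adjusted *P* = 0.000261). With NMU over IL-33, 0 of 11 passed with edgeR, 4 had an unadjusted *P* value under 0.05, and 2 passed with DESeq2. The median over the 11 genes was 0.64 for CGRP against IL-33 and 0.62 for NMU against IL-33.

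**Figure D5:**
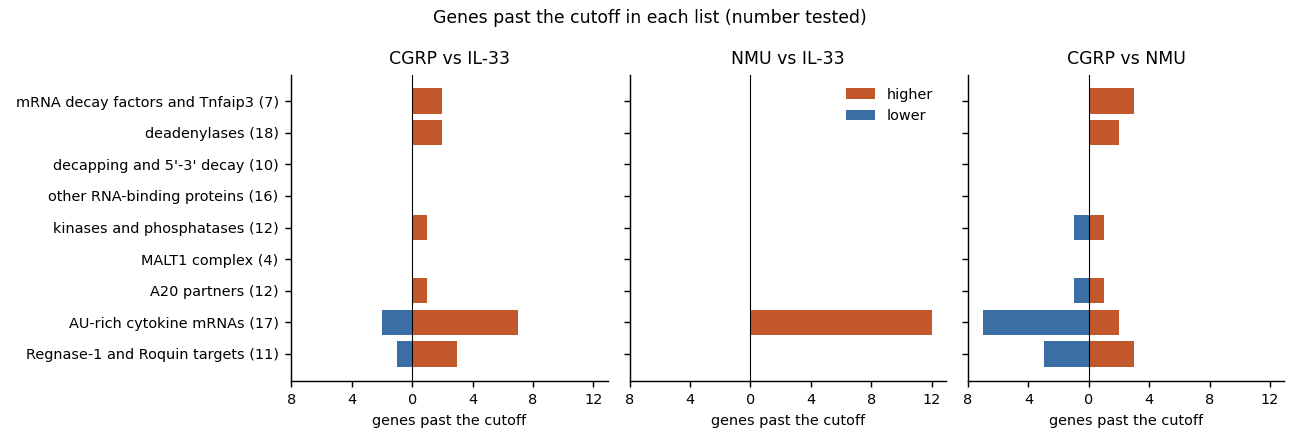
Number of genes past the cutoff in each list, higher to the right of 0 and lower to the left, in 3 treatment comparisons, with the number of genes tested in brackets. In CGRP against IL-33, 7 of 17 AU-rich cytokine mRNAs were higher and 2 lower, and 0 of 10 decapping genes passed.

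Across the 16 libraries, likeness of pattern differed between pairs of members. The Pearson *r* of log2 CPM was 0.80 between *Zfp36* and *Tnfaip3*, 0.77 between *Zfp36* and *Zfp36l1*, and 0.81 between *Zfp36l1* and *Tnfaip3*. For *Zfp36* it was 0.28 with *Zfp36l2* and -0.10 with *Rc3h1*. Intermediate values were 0.56 between *Zfp36l2* and *Tnfaip3*, and for *Zc3h12a* 0.62 with *Tnfaip3*, 0.57 with *Zfp36l1*, 0.54 with *Zfp36*, and 0.46 with *Zfp36l2*. The value of -0.89 between *Rc3h2* and *Zc3h12d* reflects the single library in which the former had 1 count and the latter 37. These libraries share treatments and genotypes, so the correlations describe the pattern and carry no *P* value.

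Of the 4880 genes that averaged 20 CPM or more, those whose pattern was most like that of *Zfp36* included *Map3k8* (*r* = 0.93), which encodes the kinase TPL2, and *Ier2* (0.92), an immediate early gene. *Map3k8* had 454 ± 78.9 CPM with CGRP and 84.3 ± 15.8 CPM with IL-33 (SD, *n* = 4), and *Ier2* had 173 ± 37.9 and 29.0 ± 12.1 CPM. For *Tnfaip3*, they were *Gna13* (0.95), *Bhlhe40* (0.95), and *Rora* (0.94), and *Bhlhe40* (0.87) also headed those of *Zfp36l1*, before *Il10ra* (0.87) and *Mbd1* (0.85). *Bhlhe40*, a transcriptional repressor, had 312 ± 50.5 CPM with CGRP, 116 ± 38.5 CPM with IL-33, and 53.2 ± 14.0 CPM with NMU. For *Zfp36l2*, they were *Il7r* (0.86), the IL-7 receptor α chain, *Celf2* (0.85), and *Rb1* (0.84). *Il7r* had 904 ± 110 CPM with IL-7, 724 ± 145 CPM with IL-33, 905 ± 126 CPM with CGRP, and 361 ± 53.5 CPM with NMU, and thus was lowest with NMU as *Zfp36l2* was. For *Rc3h1*, they were *Crebbp* (0.85), *Cyld* (0.80), and *Wasf2* (0.74). For *Rc3h2*, they were *Acyp2* (0.96), *Slc31a2* (0.95), and *Uhrf1bp1l* (0.95). All had their lowest CGRP value, 0 to 5.04 CPM, in *Pac1-/-* CGRP replicate 2, the library with 1 count of *Rc3h2*. Their *r* without that library was not computed.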

How the data were processed

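The authors sorted about 500 ILC2s per library, amplified full-length cDNA, sequenced paired-end reads of 150 bp, aligned them to mm10 with HISAT2, and deposited raw counts per Ensembl gene, without normalization. The counting tool, annotation, strand setting, and treatment of duplicates are not given in the sources used here. For culture, the methods describe 1 to 2 weeks of expansion with IL-2 and IL-7 before stimulation. Counts of all 16 libraries were mapped to groups from the labels and to symbols through GENCODE M21. TPM used exon lengths merged over transcripts, which can understate genes with long rare exons.

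One model with 8 groups was fitted to all 16 libraries in R 4.3.3 with edgeR 4.0.16 (TMM scaling, filterByExpr, quasi-likelihood test, Benjamini-Hochberg adjustment over the 14979 genes tested). The common biological coefficient of variation was 0.985. Genes counted as changed at a fold change above 1.5 with an adjusted *P* value under 0.05. The study used this cutoff with DESeq2. Here edgeR gave the main calls and DESeq2 was run as another setting, so the counts are not those of the study. For correlations, CPM values were put on a log2 scale after adding 2 prior counts. The fit was tested on simulated data for CGRP against IL-33, with 200 of 13965 genes changed. The fit found 12% of those changed 2-fold and 66% of those changed 4-fold, and 1.27% of its calls were false.

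The members and gene lists were chosen with earlier results of these data known. Named were all members, *Dusp2*, up to 3 genes per list and comparison by smallest *P* value, and the 3 genes most alike to each member above 20 CPM; other target genes, *Rc3h2* partners, and marker genes serve as values beside these. Other settings tried were DESeq2 1.42.0, RLE scaling, all genes without a filter, a minimum of 10 counts per library, a cutoff without the fold change, a fit to the compared libraries only, a block for the replicate number, a prior count of 0.5, and the omission of each library in turn. RefSeq and GENCODE sequences were searched for fixed letters. Some items that these rules select are not reported here.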

Additional observations from a re-analysis of the deposited data

How the results depend on the processing

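The 2 members past the cutoff in CGRP against IL-33 (*Zfp36* and *Tnfaip3*) were the same 2 under RLE scaling, DESeq2, no filter, a minimum of 10 counts per library, a cutoff without the fold change, the replicate block, and a fit to the compared libraries only. Leaving out each of the 16 libraries in turn gave log2 differences of 2.55 to 2.94 for *Zfp36* and 0.98 to 1.32 for *Tnfaip3*, all past the cutoff. In CGRP against NMU, DESeq2 gave 5 members in place of 3, adding *Zfp36l1* and *Zc3h12a*, and in NMU against IL-33 it gave 1 in place of 0 (*Zfp36l2*). When 1 library was left out, the number of members past the cutoff was 0 to 1 for *Pac1-/-* against WT over all treatments, 0 to 1 for *Pac1-/-* against WT with CGRP, and 0 to 1 for the genotype by CGRP interaction. The 1 was *Rc3h2* without *Pac1-/-* CGRP replicate 1 in each case (log2 differences -2.21, -8.20, and -8.17), which in this setting also joined the members past the cutoff in CGRP against IL-33 and against NMU. *Zfp36l2* in CGRP against NMU was past the cutoff in 15 of 16 such fits. Of 84 member values, 38 changed sign under some setting. The value of *Rc3h2* in CGRP against IL-33 was the 1 of these that also passed the cutoff under a setting.

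Over all genes, 413 were past the cutoff in CGRP against IL-33, against 1596 with DESeq2, 845 without a filter, and 199 with the libraries of the comparison alone, and 820 in CGRP against NMU, against 2217, 1318, and 525. For NMU against IL-33 the numbers were 28, 287, 116, and 14, and for IL-33 against IL-7 they were 5, 338, 199, and 10. For the genotype over all treatments they were 17, 245 with DESeq2, and 117 without a filter. For the genotype within IL-7, IL-33, CGRP, and NMU, 1, 1, 16, and 3 genes passed, against 144, 61, 558, and 97 with DESeq2 and 21, 26, 183, and 39 without a filter. With the compared libraries only, they were 1, 1, 0, and 3, and with CGRP 2 genes passed at a minimum of 10 counts, 10 with the replicate block, and 40 to 237 when 1 library was left out. The cause of these differences was not tested. The difference in log2 CPM between replicate 2 and replicate 1 was compared between groups. Over 28 pairs of groups, its correlation across genes was -0.06 to 0.04. These values showed no shared shift of same-numbered libraries, and they cannot tell whether the numbers paired mice or cultures. With the replicate number as a block, 366, 776, 27, and 2 genes passed in these 4 treatment comparisons, in the order above, and the members that passed were those given above. With a prior count of 0.5, all 3 genes most alike to each member were shared with those given, except for *Rc3h2*, with 2 of 3. At 2 libraries a group, a member with a wide interval cannot be called unaffected by genotype.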
